A study of Mus musculus with 18 samples.

Results

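The GV to MII change of each mRNA was compared between Lsm14b KO and WT mouse oocytes. For each gene the quantity was the KO change, MII minus GV, minus the WT change, MII minus GV, on log2(FPKM + 1), where FPKM counts a gene's reads relative to its exon length and to the library's reads. This quantity is called the genotype difference here: above 0, a transcript fell less or rose more in KO oocytes than in WT oocytes. It was computed for the 9791 of 27874 listed genes that had at least 1 FPKM in at least 3 of 12 libraries. The libraries were 3 KO MII, 3 KO GV, 3 WT MII and 3 WT GV, out of 18 in the series, which also holds KO and WT libraries at metaphase I (MI). Each library was made from 15 oocytes of Lsm14b-/- (KO) or wild-type (WT) mice, either at the germinal vesicle stage (GV) or 14 h after human chorionic gonadotropin (hCG), a time the submitters denote as MII. The labels do not state whether the KO oocytes had reached metaphase II by then, and give neither the strain nor the age of the mice, nor whether replicates came from separate animals.

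A fully grown mouse oocyte is transcriptionally silent and lives on mRNA stored during growth. When meiosis resumes, some stored mRNAs gain long poly(A) tails and are translated, while many others are deadenylated and cleared before fertilization. Lsm14b encodes an RNA-binding protein of the LSM14 family that takes part in cytoplasmic ribonucleoprotein storage. cDNA was primed with oligo(dT), so a transcript whose tail shortens can lose reads before its body is degraded. Because a library pools 15 oocytes, a lower level in every oocyte cannot be told apart from a loss in some of them.

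The 3′ end of an mRNA carries the letters that cytoplasmic polyadenylation reads, and the ends of mRNAs with large genotype differences are shown for that reason. Each line is 30 bases of the annotated transcript, 5′ to 3′, from GENCODE vM21 on GRCm38, with the polyadenylation hexamer AATAAA or ATTAAA in capitals, and with TTTTAT or TTTTAAT, letters of the cytoplasmic polyadenylation element (CPE), also in capitals where they lie in the same window. The first 5 belong to transcripts with a genotype difference above 0, and Gnl2 and Cnot3 to transcripts with one below 0.
Zp2: attggacttgcaAATAAAgagactgcagtt
Zp3: tatcccttccgcAATAAAagaagaaactca
Cd9: aatttgatacatAATAAAagattataacag
Cfl1: aaacaaaaaaacAATAAAaaggctaattaa
Abcg1: aactgctAATAAAataTTTTATataaaaat
Gnl2: agaaagctgtttATTAAAttatacaaaaat
Cnot3: atttatgAATAAAtagTTTTATatgacggc
The annotated 3′ untranslated region was 49 bases long in Zp2, 13 in Zp3, 395 in Cd9, 349 in Cfl1, 3703 in Abcg1, 40 in Gnl2 and 283 in Cnot3. Of these, Abcg1 and Cnot3 had CPE letters in the last 100 bases, 1 of them on each side of the comparison. The ends shown follow no stated rule, so this balance is not a result. In both windows the CPE letters lie 3′ of the hexamer. They start 17 bases from the end in Abcg1 and 19 in Cnot3, and the hexamer 26 and 28. The annotated end may not be the end used in oocytes.

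By the size of 1 read, the 12 libraries held 14227800 to 16861000 gene reads each, so that 1 read on 1 kb of exon was worth 0.0593 to 0.0703 FPKM. Between 7352 and 9715 genes per library reached 1 FPKM. Libraries differed in how far they lay from their group: deviations from the group mean had an SD over genes of 0.528 and 0.483 in KO GV replicates 2 and 3, 0.261 in KO GV replicate 1 and at most 0.293 in the other 9. The targeted gene checked the labels: Lsm14b had 0.106, 0.0214 and 0.211 FPKM in KO oocytes at MII and 0.114, 0.234 and 0 FPKM at GV, against 9.80, 10.8 and 7.42 FPKM in WT oocytes at MII and 2.57, 2.28 and 2.04 FPKM at GV.

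The transcriptome was remodelled in both genotypes, less so in KO oocytes. From GV to MII, 3602 genes changed in KO oocytes (36.8% of those tested), 1146 higher (11.7%) and 2456 lower (25.1%), against 5657 in WT oocytes (57.8%), 2796 higher (28.6%) and 2861 lower (29.2%). All calls here are limma's, at a Benjamini-Hochberg adjusted p under 0.05. Changes over genes had an SD of 1.03 in KO and 1.30 in WT on the log2 scale. The KO and WT changes, which share no library, correlated across genes with Pearson r = 0.778, where genes are not independent replicates. The falls were shared more than the rises: 1988 genes fell in both, 80.9% of the KO falls and 69.5% of the WT falls, while 715 rose in both, 62.4% of the KO rises and 25.6% of the WT rises.

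The genotype difference itself passed in 465 genes (4.75%), 346 above 0 (3.53%) and 119 below 0 (1.22%), while 2687 genes had an unadjusted p under 0.05. With quantile normalization the split was 539 above and 310 below 0, and the balance turned without KO GV replicate 3 (827 above and 1976 below) and with library quality weights (2052 and 3018). Of the 346, 327 had fallen in WT oocytes; of these 327, 199 had no called change in KO oocytes, 102 fell in KO as well, by less, and 26 rose in KO. The remaining 19 rose in KO with no called change in WT. Of the 119, 74 rose in WT, of which 64 had no called change in KO and 10 fell there, 29 fell in KO with no called change in WT, and 16 fell in both. Across all 9791 genes the median genotype difference was -0.16.

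**Figure D1:**
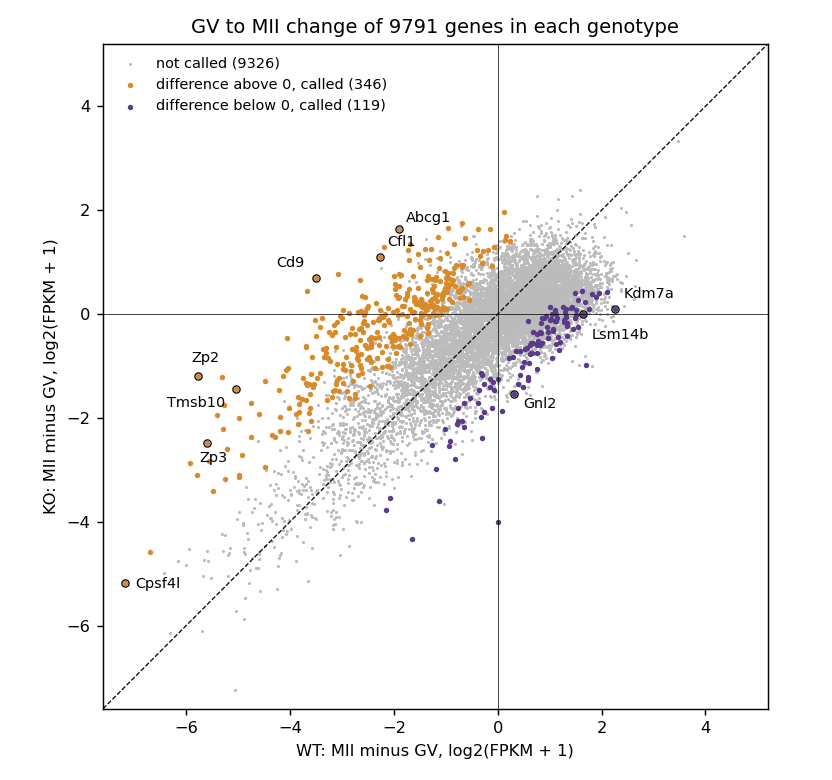
GV to MII change of 9791 genes, MII minus GV on log2(FPKM + 1), in KO oocytes (vertical axis) against WT oocytes (horizontal axis); the dashed line marks equal change, orange points the 346 genes with a called genotype difference above 0 and purple points the 119 below 0. Zp2, at -1.20 in KO and -5.76 in WT, and Cd9, at 0.69 in KO and -3.49 in WT, lie far above the line, and Kdm7a, at 0.10 in KO and 2.26 in WT, lies below it.

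Most of the 346 genes above 0, 327, were transcripts that fell in WT oocytes, and 102 of these fell in KO oocytes as well. Their median level over genes was 27.9, 29.1 and 21.4 FPKM in KO oocytes at GV, MI and MII, against 34.6, 30.5 and 4.83 FPKM in WT oocytes. The MII level was a median of 89.1% of the GV level in KO and 16.9% in WT, against 91.1% and 112% for all genes tested, and the MI level was 101% of it in KO and 90.1% in WT. At MI the genotypes stood close, with a median KO minus WT value of -0.01, where the median of all genes was -0.13. At MII the median KO minus WT value was 1.69 and at GV -0.22; these comparisons share libraries with the genotype difference. Over all genes, KO differed from WT in 2775 at MII (28.3%), 1448 higher (14.8%) and 1327 lower (13.6%), and in 1662 at GV (17%), 960 higher (9.8%) and 702 lower (7.17%).

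The 119 genes below 0 were low transcripts, with medians of 2.51, 1.16 and 0.756 FPKM in KO oocytes at GV, MI and MII, against 1.86, 3.32 and 4.08 FPKM in WT oocytes. Their MII level was a median of 46.5% of the GV level in KO and 236% in WT. At MI it was 61.0% of the GV level in KO and 180% in WT, against 92.8% and 127% for all genes tested. The genes were chosen on a contrast that holds the same GV libraries, so these percentages are a description. Over all genes tested the medians were 4.80, 4.09 and 3.52 FPKM in KO and 3.74, 4.82 and 3.33 FPKM in WT.

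**Figure D2:**
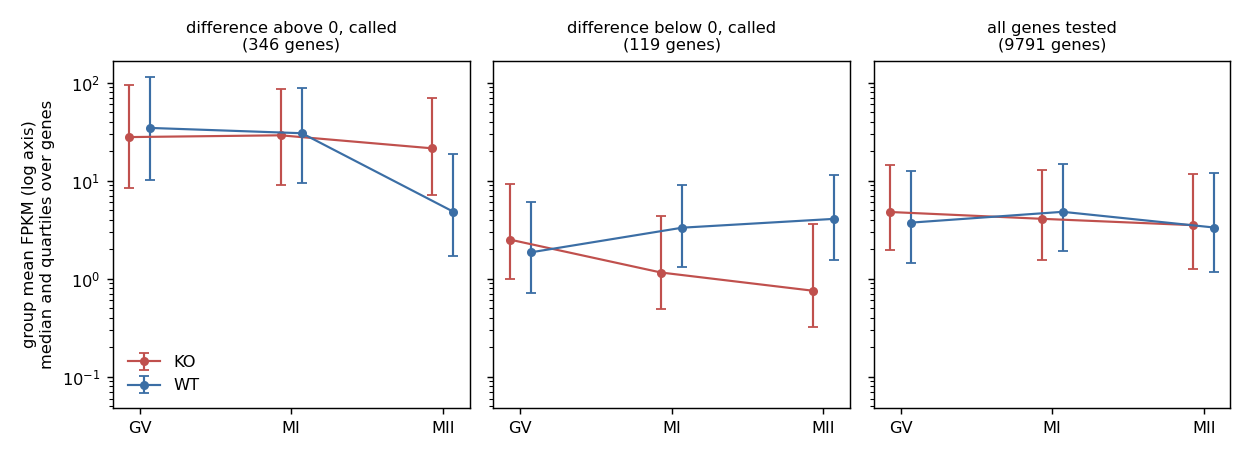
Group mean FPKM on a log axis at GV, MI and MII, as the median (points) and quartiles (bars) over genes, in KO (red) and WT (blue) oocytes, for genes with a called difference above 0, below 0 and for all genes tested. In the first panel KO stays at 21.4 FPKM at MII while WT is at 4.83 FPKM, and at MI they are at 29.1 and 30.5 FPKM.

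Genes of the zona pellucida, the glycoprotein coat that the oocyte builds while it grows, stood among the largest differences. Zp2, which encodes the zona protein that sperm bind, had 1219, 1367 and 939.9 FPKM in KO oocytes at MII and 3054, 1903 and 3246 FPKM at GV, against 51.6, 48.8 and 50.6 FPKM in WT oocytes at MII and 2655, 3576 and 2271 FPKM at GV. The genotypes overlapped at GV and were far apart at MII, where KO oocytes held 43.0% of their GV mean and WT oocytes 1.78%. The genotype difference was 4.57 on the log2 scale (SE 0.37, adjusted p = 0.000109), made of a KO change of -1.20 and a WT change of -5.76. Zp3, which encodes the zona protein that forms filaments with Zp2, had 1434, 1438 and 917 FPKM in KO oocytes at MII and 8535, 5218 and 7317 FPKM at GV, against 188, 117 and 169 FPKM in WT oocytes at MII and 7687, 8916 and 6389.7 FPKM at GV. It fell in both genotypes, with log2 changes of -2.48 in KO and -5.61 in WT, and with a difference of 3.13 (SE 0.40, adjusted p = 0.00138). Zp1, which crosslinks the filaments, averaged 267 ± 72.3 FPKM in KO oocytes at MII and 884 ± 241 FPKM at GV, against 48.3 ± 18.4 FPKM in WT oocytes at MII and 1367 ± 656 FPKM at GV (SD, n = 3), a difference of 3.03 (adjusted p = 0.00977). The 3 zona calls held in all 12 fits that left out 1 library, which the naming rule required of Zp2 and Zp3.

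Other growth-phase genes of the oocyte differed in part. The median of 25 tested genes of the zona and of oocyte growth factors was 0.51, beside -0.16 for all genes. Of the 25, 6 were above 0 (24%, against 3.53% of all genes) and 0 below (against 1.22%). Besides the zona genes these were Oog1, an oocyte-specific gene (1.70, adjusted p = 0.0189), Lhx8, an oocyte transcription factor (1.84, adjusted p = 0.0342), and Fgf8, a growth factor that oocytes send to cumulus cells (1.84, adjusted p = 0.0372). Oog1 averaged 276 ± 29.9 FPKM in KO oocytes at MII and 276 ± 89.6 FPKM at GV, against 118 ± 11 FPKM in WT oocytes at MII and 371 ± 21.4 FPKM at GV (SD, n = 3). Gdf9, the secreted factor that acts on granulosa cells, had a difference of 0.06 (SE 0.33, adjusted p = 0.923), and that of its close relative Bmp15 did not pass (adjusted p = 0.0922). The call of Fgf8 held in 3 of 12 fits without 1 library, that of Lhx8 in 6 and that of Oog1 in 9. The count of 6 ranged from 3 to 9 over these fits. The upper count came without KO GV replicate 3, where 827 of all 9791 genes were above 0.

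On the egg surface, Cd9, the tetraspanin that mouse eggs need for fusion with sperm, had 246, 223 and 251 FPKM in KO oocytes at MII and 208, 94.4 and 164 FPKM at GV, against 17.9, 11.5 and 8.39 FPKM in WT oocytes at MII and 171, 138 and 130.3 FPKM at GV. Among these 12 libraries the 3 KO MII values were the highest and the 3 WT MII values the lowest. At MI, outside the contrast, Cd9 averaged 270.3 ± 80.9 FPKM in KO oocytes and 147 ± 43.8 FPKM in WT oocytes (SD, n = 3), with no overlap. The difference was 4.18 (SE 0.44, adjusted p = 0.000408). WT oocytes at MII kept 8.60% of their GV mean, and KO oocytes stood at 154% of theirs, a KO change of 0.69 that did not pass (adjusted p = 0.0951). Izumo1r, the egg receptor for the sperm protein Izumo1, had a difference of 0.78 (adjusted p = 0.104). Of 8 tested genes of the egg surface and fertilization, 3 were above 0 (37.5%, against 3.53% of all genes) and 0 below. Besides Cd9 these were Zp2 and Zp3. Of the 8 estimates, 4 lay above 0, against 4020 of all 9791, and the median of the list was 0.38. Itpr1, of the same list, had a difference of -1.27 that did not pass (adjusted p = 0.0995).

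Genes that set actin turnover in the cortex had differences above 0 as well. Cfl1, which encodes cofilin, the filament-severing factor, had 1768, 2028 and 1783 FPKM in KO oocytes at MII and 915, 653 and 1073 FPKM at GV, against 158, 136 and 215 FPKM in WT oocytes at MII and 777, 947 and 708 FPKM at GV. It rose in KO (1.10, adjusted p = 0.00375) and fell in WT (-2.26, adjusted p = 7.98e-06), a difference of 3.37 (SE 0.36, adjusted p = 0.000408). Tmsb10, which encodes a thymosin that binds actin monomers, had 292, 184 and 296 FPKM in KO oocytes at MII and 583, 1237 and 448 FPKM at GV, against 6.55, 8.24 and 7.08 FPKM in WT oocytes at MII and 294, 221 and 305 FPKM at GV. It fell in both genotypes, to 34.0% of the GV mean in KO and 2.66% in WT, and the difference was 3.60 (adjusted p = 0.00155). Arpc1a, a subunit of the actin-nucleating Arp complex, stood at 24.4 ± 1.7 FPKM in KO oocytes at MII and 22.9 ± 4.77 FPKM at GV, against 2.30 ± 0.506 FPKM in WT oocytes at MII and 13.3 ± 2.64 FPKM at GV (SD, n = 3; difference 2.22, adjusted p = 0.00276). Cfl2, the muscle-type cofilin, had a difference of 2.53 (adjusted p = 0.0232, called in 6 of 12 fits without 1 library). In all, 4 of 32 tested genes of actin and the cortex were above 0 (12.5%, against 3.53% of all genes) and 0 below. Over the fits without 1 library these counts were 3 to 7 and 0 to 3. Both upper counts came without KO GV replicate 3, where 827 of all 9791 genes were above 0 and 1976 below. The median of the list was 0.09. Exons of other genes cover 16.5% of the exon bases of Cfl1 and 10.7% of those of Cd9.

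**Figure D3:**
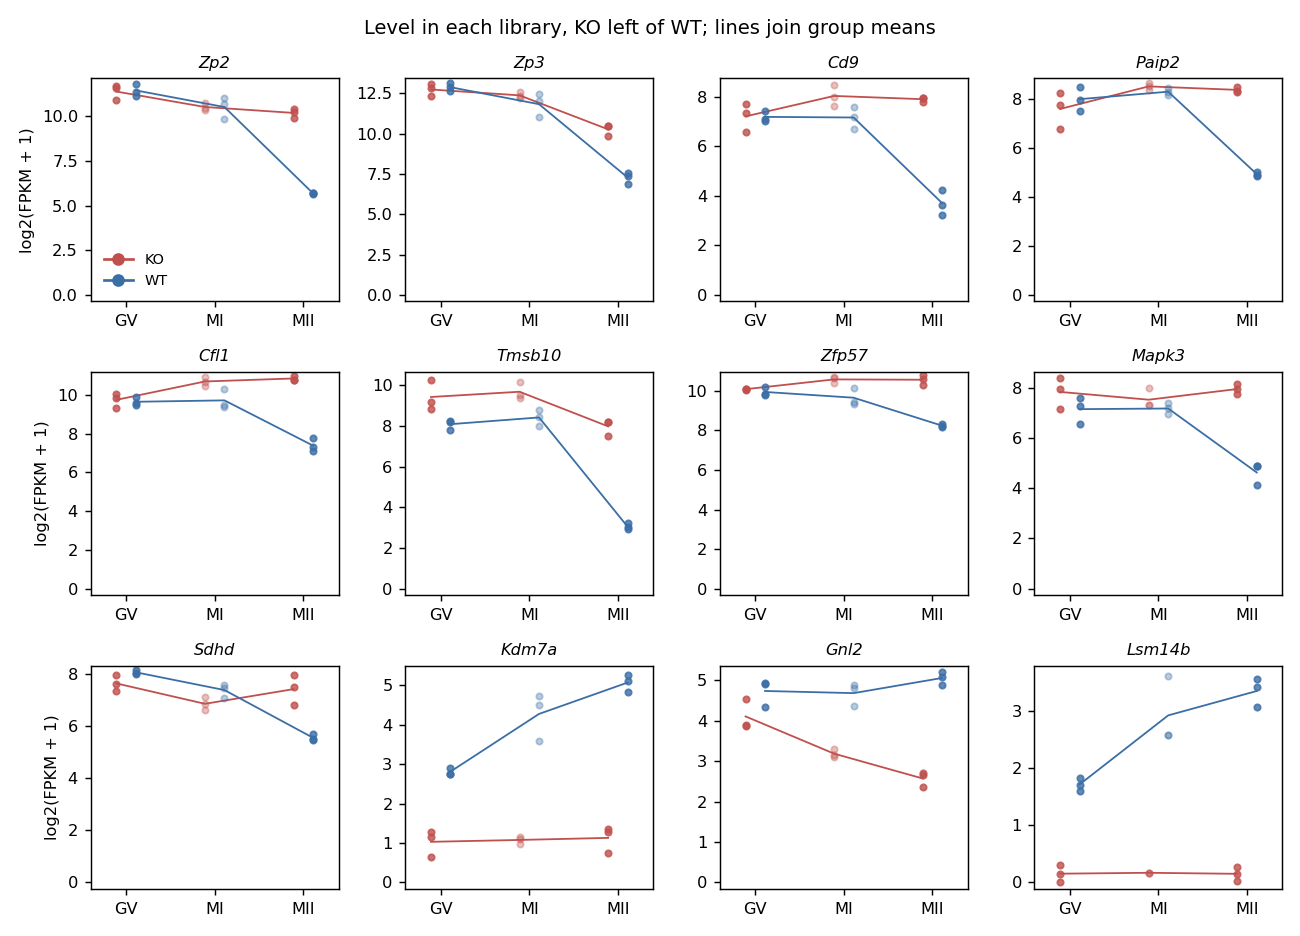
log2(FPKM + 1) of 12 genes in each library at GV, MI and MII, KO (red) left of WT (blue), with lines through the group means; the pale MI points were not part of the contrast. For Zp2, Cd9, Paip2, Cfl1 and Mapk3 every KO library lies above every WT library at MII, and for Cd9 and Cfl1 also at MI, while Kdm7a lies lower in KO at each stage.

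The other large differences above 0 fell on genes of varied function. Pde6d, a carrier of prenylated proteins, averaged 121 ± 35.6 FPKM in KO oocytes at MII and 181 ± 104 FPKM at GV, against 27.6 ± 3.95 FPKM in WT oocytes at MII and 475 ± 72.1 FPKM at GV (SD, n = 3; difference 3.59). Its KO level lay below the WT level at GV and above it at MII. The same crossing, with no overlap at either stage, was seen for Abcg1, a cholesterol exporter (difference 3.54), Sh3gl1, an endophilin of endocytosis (3.49), Car9, a carbonic anhydrase (3.30), and Mfsd2a, a lysolipid transporter (3.19). Ppp2r2b, a regulatory subunit of protein phosphatase PP2A, had a difference of 3.09. Adjusted p-values of these 6 genes were 0.000662 to 0.0061. All 6 kept the call in each of the 12 fits without 1 library, as the naming rule required.

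Chchd2, a protein of the mitochondrial intermembrane space, had 97.8, 49.6 and 93.3 FPKM in KO oocytes at MII and 244, 617 and 176 FPKM at GV, against 1.78, 2.68 and 2.47 FPKM in WT oocytes at MII and 157, 129.8 and 131 FPKM at GV. KO lay above WT at both stages, by 4.57 at MII and 1.10 at GV, and the difference was 3.47 (adjusted p = 0.00441). Timm9, a small chaperone of the protein import machinery, averaged 124 ± 35.5 FPKM in KO oocytes at MII and 132 ± 24.6 FPKM at GV, against 14.2 ± 3.17 FPKM in WT oocytes at MII and 173 ± 35.1 FPKM at GV (SD, n = 3; difference 3.40, adjusted p = 0.000737).

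Maternal effect genes, those of the subcortical maternal complex among them, numbered 36 tested. Of these, 5 were above 0 (13.9%, against 3.53% of all genes) and 0 below. Their median was 0.16, and over the fits without 1 library the counts ran from 2 to 7 and from 0 to 7. Both upper counts came without KO GV replicate 3, where 827 of all 9791 genes were above 0 and 1976 below. The complex is a protein assembly under the oocyte surface on which the first cleavages depend. Zfp57, which protects imprinted methylation in the embryo, had 1536, 1801 and 1260.1 FPKM in KO oocytes at MII and 1070.1, 1091 and 1105 FPKM at GV, against 298, 289.9 and 317 FPKM in WT oocytes at MII and 915, 1184 and 889 FPKM at GV. The 4 groups overlapped only between KO GV and WT GV, and the difference was 2.19 (SE 0.30, adjusted p = 0.00188). Nlrp5, a core member of the complex, averaged 727 ± 264 FPKM in KO oocytes at MII and 579 ± 125 FPKM at GV, against 182 ± 14.8 FPKM in WT oocytes at MII and 563 ± 165 FPKM at GV (SD, n = 3; difference 1.89, adjusted p = 0.0231). Tle6, its binding partner, averaged 609 ± 188 FPKM in KO oocytes at MII and 1571 ± 225 FPKM at GV, against 115 ± 31.7 FPKM in WT oocytes at MII and 1381 ± 472 FPKM at GV (difference 2.16, adjusted p = 0.0187). Padi6, needed for the cytoplasmic lattices of the egg, had a difference of 3.06 (adjusted p = 0.0212), and Nlrp2 one of 2.36 (adjusted p = 0.0155). The calls of Padi6 and Nlrp5 held in 6 of the 12 fits without 1 library, that of Tle6 in 9, that of Nlrp2 in 11 and that of Zfp57 in all 12.

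Paip2, an inhibitor of cytoplasmic poly(A)-binding protein, had 363, 327 and 316 FPKM in KO oocytes at MII and 219.7, 109 and 307 FPKM at GV, against 29.2, 28.4 and 31.8 FPKM in WT oocytes at MII and 251, 184 and 367 FPKM at GV. The difference was 3.85 (SE 0.48, adjusted p = 0.00123). Cpsf4l, a relative of a cleavage and polyadenylation factor, fell to 1.90% of its GV mean in KO and 0.368% in WT. It averaged 2.24 ± 0.505 FPKM in KO oocytes at MII and 118 ± 33.5 FPKM at GV, against 1.14 ± 0.356 FPKM in WT oocytes at MII and 309 ± 49.9 FPKM at GV (SD, n = 3). Its difference of 2.01 (adjusted p = 0.00883) went with a KO level that was lower than WT at GV by 1.41 and higher at MII by 0.60. Rbpms2, an RNA-binding protein of oocytes, had a difference of 2.07 (adjusted p = 0.0339, called in 3 of 12 fits without 1 library), and Pabpc1l, the poly(A)-binding protein of oocytes, one of 1.83 that did not pass (adjusted p = 0.0568). Of 40 tested genes of RNP storage and translational control, 2 were above 0 (5%, against 3.53% of all genes). Below 0 was 1, Lsm14b, the targeted gene itself (2.5%, against 1.22%), so this share is no result about the list. The median was -0.25, or 0.05 with median-of-ratios scaling.

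Among factors of deadenylation and decapping, which shorten tails and open the cap of mRNAs to be cleared, 0 of 27 were above 0 by limma. Below 0 was 1 (3.70%, against 1.22% of all genes), and the median was -0.46. At an unadjusted p under 0.05, 0 were above and 9 below, where 2687 of all 9791 genes passed, a total not split by direction. By voom the counts were 0 and 0 of 23. Cnot3, a scaffold subunit of the CCR4-NOT deadenylase, had 2.45, 2.29 and 3.11 FPKM in KO oocytes at MII and 2.69, 7.10 and 1.65 FPKM at GV, against 11.6, 17.6 and 12.3 FPKM in WT oocytes at MII and 3.97, 3.81 and 4.18 FPKM at GV. The difference was -1.81 (SE 0.47, adjusted p = 0.0465), a call that held in 2 of 12 fits without 1 library. Cnot6, a catalytic subunit, had a difference of -1.21 (adjusted p = 0.0527), Lsm1, of the decapping activator ring, -1.02 (adjusted p = 0.0847), and the exonuclease gene Xrn1 -0.70 (adjusted p = 0.111). In all 3 every KO library lay below every WT library at MII, and none of the 3 differences passed. The members below 0 numbered from 0 to 9 over the fits without 1 library. The 9 came without KO GV replicate 3, where 1976 of all 9791 genes were called below 0.

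Some transcripts were lower in KO at both stages with no called difference in their change. KO minus WT was -2.11 at MII and -2.17 at GV for Dazl, -1.27 and -1.88 for Btg4, and -1.15 and -1.23 for Mos, all 6 values past the threshold. Dazl, the germline translation regulator, had a KO change of 1.03 and a WT change of 0.96, so that the difference was 0.06 (SE 0.37, adjusted p = 0.928). Btg4, the adaptor that brings CCR4-NOT to maternal mRNA, had changes of 1.35 and 0.74 in KO and WT (difference 0.62, SE 0.36, adjusted p = 0.279), and Mos, the kinase that starts the MAP kinase cascade of the oocyte, changes of -0.07 and -0.15 (difference 0.08, SE 0.29, adjusted p = 0.886). Of 34 tested dormant mRNAs, which are stored at GV and translated during maturation, 1 was above 0, Ska3, and 0 below. The share above was 2.94%, against 3.53% of all genes. The median was 0.07, and -0.09 and -0.03 with quantile and TPM scaling. Cpeb4, which encodes a CPE-binding protein, averaged 2.59 ± 0.932 FPKM in KO oocytes at MII and 1.48 ± 0.893 FPKM at GV, against 16.8 ± 2.01 FPKM in WT oocytes at MII and 3.15 ± 1.21 FPKM at GV (SD, n = 3), a difference of -1.56 that did not pass (adjusted p = 0.0638).

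Meiotic kinases and the anaphase-promoting complex had shares of calls near the 3.53% of all genes. Mapk3, a MAP kinase downstream of Mos, had 249.9, 215 and 283 FPKM in KO oocytes at MII and 250.2, 340.0 and 140.3 FPKM at GV, against 28.8, 16.5 and 28.3 FPKM in WT oocytes at MII and 156, 194 and 93.7 FPKM at GV (difference 2.64, SE 0.50, adjusted p = 0.0113). KO oocytes stood at 102% of their GV mean at MII and WT oocytes at 16.6%. Mapk3 was the 1 called gene of 31 meiotic kinases and cyclins tested, and Aurka, at 1.30, did not pass (adjusted p = 0.0995). Anapc5, a scaffold subunit of the anaphase-promoting complex, was the 1 call of 28 genes of that complex and the spindle checkpoint (difference 1.90, adjusted p = 0.0204, called in 7 of 12 fits without 1 library). The 2 lists' medians were 0.09 and -0.06, and the second turned to 0.23 with median-of-ratios scaling. Without 1 library, 1 to 5 kinases and cyclins were above 0 and 0 to 5 below. For the complex and checkpoint these counts were 0 to 3 and 0 to 6. The upper counts came without KO GV replicate 3, where 827 of all 9791 genes were above 0 and 1976 below.

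On the spindle, 3 of 38 genes were above 0 (7.89%, against 3.53% of all genes) and 0 below. These were Ska3 and Ska1, which couple kinetochores to microtubules, and Birc5, or survivin, of the chromosomal passenger complex. Ska3 averaged 96.5 ± 29.8 FPKM in KO oocytes at MII and 72.4 ± 49.5 FPKM at GV, against 10 ± 0.815 FPKM in WT oocytes at MII and 68.8 ± 14.5 FPKM at GV (SD, n = 3; difference 3.31, adjusted p = 0.0156). Birc5 averaged 603 ± 154 FPKM in KO oocytes at MII and 1186 ± 275 FPKM at GV, against 119 ± 9.96 FPKM in WT oocytes at MII and 749 ± 92 FPKM at GV (difference 1.66, adjusted p = 0.0204). Ska1 had a difference of 1.65 (adjusted p = 0.0146). The call of Birc5 held in 5 of 12 fits without 1 library, that of Ska1 in 10 and that of Ska3 in 11. The median of the spindle list was -0.20, or 0.09 with median-of-ratios scaling. Without 1 library 0 to 4 of its genes were above 0 and 0 to 7 below. The 7 came without KO GV replicate 3, where 1976 of all 9791 genes were below. None of 21 cohesin, condensin and shugoshin genes passed by limma. The median was -0.69 and 3 estimates lay above 0, against 4020 of all 9791. At an unadjusted p under 0.05, 1 was above and 11 below, where 2687 of all 9791 genes passed, a total not split by direction. By voom 0 of 19 were called. The count was 0 above and 3 below with median-of-ratios and with quantile scaling, where 234 and 310 of all 9791 genes were below. Over the fits without 1 library 0 to 9 were below. The 9 came without KO GV replicate 3, where 1976 of all 9791 genes were below. Smc1b, the meiotic cohesin subunit, had the smallest adjusted p of the list, 0.0553, with a difference of -1.23. Smc4, a condensin subunit, averaged 220.2 ± 23.9 FPKM in KO oocytes at MII and 218 ± 14.4 FPKM at GV, against 351 ± 13 FPKM in WT oocytes at MII and 177 ± 14.2 FPKM at GV (difference -0.98, adjusted p = 0.056).

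The median level of nuclear genes of the respiratory chain fell in both genotypes, and part of these genes had a genotype difference above 0. Of 72 tested, 7 were above 0 (9.72%, against 3.53% of all genes) and 0 below. The median difference was 0.32, and the median changes were -1.91 in KO and -2.42 in WT. Sdhd, an anchor subunit of succinate dehydrogenase, had 252, 111 and 179 FPKM in KO oocytes at MII and 194, 161 and 253 FPKM at GV, against 44.4, 51.2 and 43.1 FPKM in WT oocytes at MII and 264, 254 and 289 FPKM at GV (difference 2.30, adjusted p = 0.00756). Cox7b, a subunit of cytochrome c oxidase, fell in both, with a log2 change of -1.92 in KO and -3.88 in WT (difference 1.96, adjusted p = 0.00867). Ndufb3, Ndufc2, Cox6a1, Atp5c1 and Atp5a1 had differences of 1.47 to 2.52, with calls that held in 2 or 3 of 12 fits without 1 library. Over those fits the count above 0 ran from 2 to 10. The 10 came without KO GV replicate 2, where 491 of all 9791 genes were above 0.

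mRNAs of the mitochondrial genome, which are transcribed inside mitochondria, had 0 of 12 called by limma. At an unadjusted p under 0.05, 0 were above and 5 below 0, where 2687 of all 9791 genes passed, a total not split by direction. By voom 1 was called below. mt-Nd2 had 711, 501 and 1372 FPKM in KO oocytes at MII and 367, 243 and 238 FPKM at GV, against 1295, 2152 and 2192 FPKM in WT oocytes at MII and 177, 91.9 and 215 FPKM at GV. The difference was -2.08 and did not pass (adjusted p = 0.0513), and the median of the list was -0.88. With quantile and with TPM scaling 2 of 12 passed below 0, where 310 and 122 of all 9791 genes did.

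The median change of ribosomal protein mRNAs was -2.21 in KO and -2.42 in WT, and the median difference was -0.23, or 0.06 with median-of-ratios scaling. Of 72 tested, 2 were above 0 and 0 below, a share near the 3.53% of all genes. At an unadjusted p under 0.05 these counts were 7 and 9, where 2687 of all 9791 genes passed, a total not split by direction. By voom they were 3 and 0 of 63, and without 1 library the called members ran from 0 to 8 and from 0 to 11. The 8 came without KO GV replicate 2, where 491 of all 9791 genes were above 0. The 11 came without KO GV replicate 3, where 1976 were below. Rplp0, a stalk protein of the large subunit, averaged 118 ± 29.3 FPKM in KO oocytes at MII and 356 ± 58.4 FPKM at GV, against 30.1 ± 4.62 FPKM in WT oocytes at MII and 280.0 ± 16 FPKM at GV (SD, n = 3; difference 1.59, adjusted p = 0.0187). The call of Rplp0 held in 9 of 12 fits without 1 library and that of Rpl5 in 8. Rpl5 had a difference of 2.20 (adjusted p = 0.0199), but exons of other genes cover 26.7% of its exon bases, and ribosomal protein genes have many processed copies, so reads of this list may be split.

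Of 32 proteasome subunits, 4 were above 0 (12.5%, against 3.53% of all genes) and 1 below (3.1%, against 1.22%). Their median was 0.21. Psmd8, of the regulatory particle, averaged 59.6 ± 15.1 FPKM in KO oocytes at MII and 108 ± 9.76 FPKM at GV, against 18.4 ± 2.75 FPKM in WT oocytes at MII and 123 ± 9.85 FPKM at GV (SD, n = 3; difference 1.81, adjusted p = 0.00782). Psmb7, a catalytic subunit, kept 17.4% of its GV mean in KO and 0.908% in WT (difference 2.61, adjusted p = 0.0164). Psmb2 and Psma5, of the core particle, had differences of 1.48 and 1.45, and Psmd13, which stood at 0.121 FPKM in KO oocytes and 0.0479 FPKM in WT oocytes at MII, one of -1.08. The call of Psmd13 held in 3 of 12 fits without 1 library and was lost with voom (adjusted p = 0.37), a pseudocount of 0.1 (0.136), TPM scaling (0.0584) and without the filter; that of Psmb2 held in 3 of 12 and that of Psma5 in 2. Without 1 library, 1 to 8 subunits were above 0 and 0 to 2 below. The 8 came without KO GV replicate 3, where 827 of all 9791 genes were above 0. Of 30 chaperones and stress genes, 1 was above 0 (3.33%, against 3.53% of all genes) and 0 below. This was Dnaja1, a co-chaperone of Hsp70 (1.54, adjusted p = 0.0251, called in 4 of 12 fits without 1 library). The median of this list was -0.27, and 9 of 30 estimates lay above 0, against 4020 of all 9791. Hsp90ab1 (-1.75, adjusted p = 0.056), Hsp90b1 (-1.46, 0.0847) and Hsp90aa1 (-1.42, 0.0735) did not pass. Without KO GV replicate 3, 8 genes of the list were called below 0, where 1976 of all 9791 were.

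**Figure D4:**
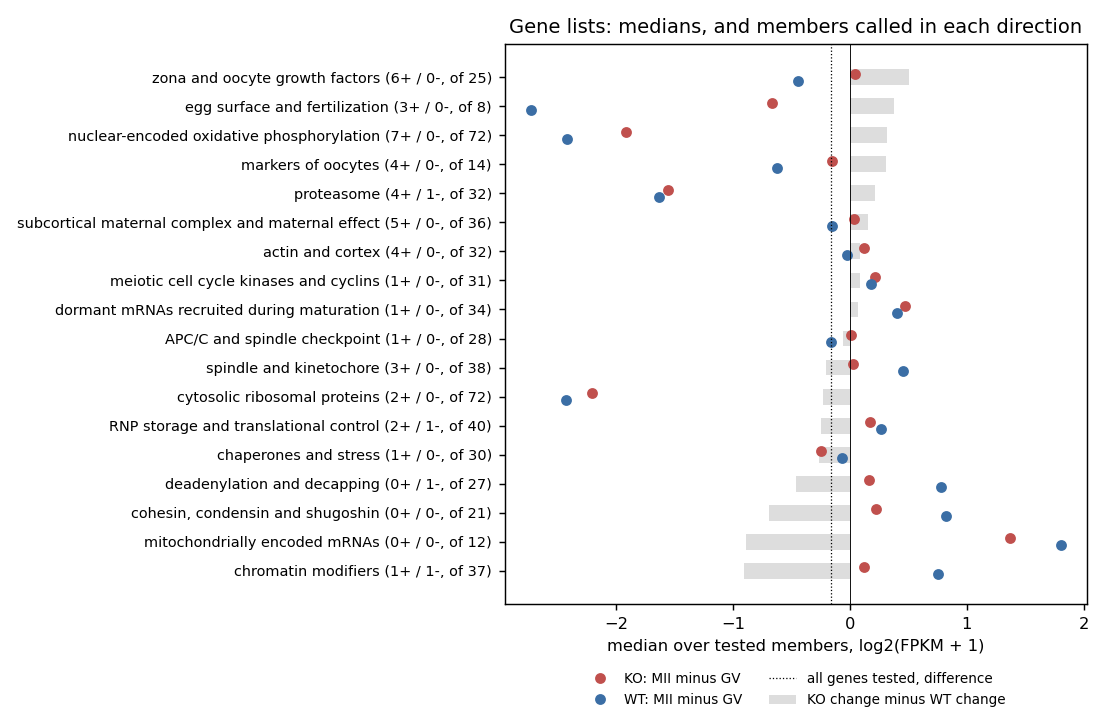
Median over the tested members of each gene list of the KO change (red) and the WT change (blue), MII minus GV on log2(FPKM + 1), and of their difference (grey bars); the dotted line is the median difference of all genes, -0.16, and the labels give members called above (+) and below (-) 0. The zona and oocyte growth factor list has the highest median, 0.51 with 6 of 25 above, and chromatin modifiers the lowest, -0.90 with 1 above and 1 below of 37.

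Chromatin genes held the largest call below 0 among the genes that the naming rule admits. Kdm7a, a histone lysine demethylase, had 1.57, 0.676 and 1.42 FPKM in KO oocytes at MII and 1.43, 1.24 and 0.565 FPKM at GV, against 37.2, 33.6 and 27.4 FPKM in WT oocytes at MII and 6.52, 5.76 and 5.76 FPKM at GV. The WT level rose (2.26, adjusted p = 6.1e-06), the KO level had no called change (0.10, adjusted p = 0.78), and the difference was -2.16 (SE 0.34, adjusted p = 0.00441). At MI it stood at 1.11 ± 0.122 FPKM in KO and 19.4 ± 7.48 FPKM in WT (SD, n = 3). Dnmt3l, the cofactor of de novo DNA methylation in the growing oocyte, went the other way, with 12 ± 1.21 FPKM in KO oocytes at MII and 10.7 ± 0.165 FPKM at GV, against 2.01 ± 0.338 FPKM in WT oocytes at MII and 9.90 ± 2.06 FPKM at GV (difference 1.99, adjusted p = 0.00286). These were the 2 calls among 37 chromatin modifiers, 2.70% above and 2.70% below 0, against 3.53% and 1.22% of all genes. The median of the list was -0.90. Its count below 0 ran from 1 to 19 over the fits without 1 library, and the 19 came without KO GV replicate 3. In that fit 1976 of all 9791 genes were called below 0.

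Few of the calls below 0 held throughout. Of the 119, 13 passed in all 12 fits without 1 library, against 116 of the 346 above 0. Gnl2, a nucleolar GTPase of ribosome assembly, had 5.53, 4.11 and 5.28 FPKM in KO oocytes at MII and 13.9, 22.3 and 13.7 FPKM at GV, against 36, 28.3 and 33 FPKM in WT oocytes at MII and 29.7, 29.2 and 19.4 FPKM at GV. It fell in KO (-1.54, adjusted p = 0.000321) and had no called change in WT (0.32, adjusted p = 0.283), a difference of -1.86 (SE 0.36, adjusted p = 0.0123). Lsm14b itself had a difference of -1.64 (SE 0.27, adjusted p = 0.00489), set by its rise in WT (1.64), since KO oocytes held at most 0.234 FPKM. In a voom fit of recovered reads this difference was -1.63 with an adjusted p of 0.338, and with a pseudocount of 0.1 the adjusted p was 0.0996.

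Some larger calls below 0 were chosen for naming after their values were seen. Of 33 called genes below 0 with a mean of at least 5 FPKM, Ddx24, Itpr2, Nop14, Luzp1, Rrp1, Larp7 and Akap12 had differences of -1.89 to -1.73 and adjusted p-values of 0.0311 to 0.0491. Ddx24, a DEAD-box RNA helicase, had 4.22, 3.70 and 6.77 FPKM in KO oocytes at MII and 11.2, 28.6 and 8.70 FPKM at GV, against 14.9, 21.4 and 15.4 FPKM in WT oocytes at MII and 12.7, 12.4 and 10.7 FPKM at GV. KO GV replicate 2 held the highest of these values, as it did for Itpr2, Nop14, Rrp1 and Luzp1. Each of the 7 kept its call in 2 to 5 of the 12 fits without 1 library.

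Opposite changes were rare: 26 genes fell in WT and rose in KO, and 10 rose in WT and fell in KO, and all 36 had a called genotype difference. Besides Abcg1, Sh3gl1 and Cfl1, the 26 held Bnip3l, a mitophagy receptor (KO 1.03, WT -1.71), Aldh1a2, a retinoic acid synthesis enzyme (KO 1.25, WT -1.40), Psmd5, a proteasome assembly chaperone (KO 1.26, WT -1.29), and Mtx2, of mitochondrial protein import (KO 1.07, WT -1.11). Among the 10 were Copb2, a coatomer subunit (KO -0.74, WT 0.64), and Luzp1 (KO -1.06, WT 0.75). These examples were chosen after their values were seen, and a processed copy of Bnip3l, which shares its sequence, is also among the 26.

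In sequence, the genes above 0 were short. An annotated coding transcript was found for 298 of the 346, and for 8211 of the 9791 tested. The median 3′ untranslated region was 394 bases among the genes above 0, against 877 among all, and the median transcript 1754 against 2840 bases, with a GC content of 50.9% against 49.1%. They were also more abundant, with a median of 27.8 against 4.78 FPKM over the 12 libraries. CPE letters, TTTTAT or TTTTAAT, stood in the last 100 bases of 17.8% of them and of 20.0% of all, and in the last 50 bases of 10.4% and 11.5%. The hexamer AATAAA or ATTAAA stood in the last 100 bases of 78.2% and 79.1%, and the Pumilio-type letters TGTANATA in the last 300 bases of 9.06% and 9.93%. Letters were read on the transcript strand only, and TTTTAAT can overlap AATAAA. A transcript was found for 77.3% of the genes below 0, under the 80% needed, so this check is void for them.

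Genes within 10 Mb of Lsm14b on chromosome 2 were few among the calls. Above 0 they were 3 of the 346 (0.867%), Polr3k, Samd10 and Mrgbp. Below 0 it was Lsm14b itself (0.840% of the 119), against 0.603% of all genes tested. Of the 346, 11 share over 25% of their exon bases with other genes, against 323 of the 9791 tested. Annotated pseudogenes are 23 of the 346 (6.65%), against 7.92% of all genes tested.

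Markers of other ovarian cells were low. The 21 listed genes of cumulus and granulosa cells summed to 11.3 to 23.1 FPKM in KO MII libraries and 14.3 to 20.4 FPKM in KO GV libraries, against 14.4 to 15.7 FPKM in WT MII and 6.34 to 10.2 FPKM in WT GV libraries, with Gata4 the largest. The sum thus moved with genotype at GV and with stage in WT; its part in the results was not tested. Theca, stroma and endothelium markers summed to at most 8.18 FPKM, with Acta2 and Cdh5 at 0 in all 12 libraries, and blood markers to at most 7.30 FPKM. The 14 oocyte markers summed to 18846 to 39445 FPKM. Of the 9 markers of other cells that were tested, 1 was called, below 0, where 1.22% of all genes were. This was Fshr, the FSH receptor. It had 0.176, 0.149 and 0.0294 FPKM in KO oocytes at MII and 1.18, 1.95 and 1.30 FPKM at GV. In WT oocytes it had 0, 0 and 0.0296 FPKM at MII and 0.317, 0.293 and 0.169 FPKM at GV (difference -0.82, adjusted p = 0.0415). These levels are near the floor. The call was lost with TPM scaling and when any 1 KO MII, WT GV or WT MII library was left out.

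How many genes passed depended on which libraries were in the fit. The count of 465 became 280, 635 and 2803 without KO GV replicates 1, 2 and 3 in turn, and 151, 284 and 290 without KO MII replicates 1, 2 and 3. It became 171, 217 and 272 without WT GV replicates 1, 2 and 3, and 255, 200 and 159 without WT MII replicates 1, 2 and 3. Without KO GV replicate 3 the balance turned, with 827 above and 1976 below 0, while the other 11 such fits had more genes above 0 than below. Of 47 named calls, 27 held in all 12 of these fits, and 0 changed sign. The naming rule required the largest differences to hold in all 12, so the 27 are no check. Of all 465 calls, 129 held in all 12. Over the 24 alternative fits, 23 named calls held wherever the gene was tested. The voom fit did not test Paip2, Abcg1, Sh3gl1 and Cfl1.

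**Figure D5:**
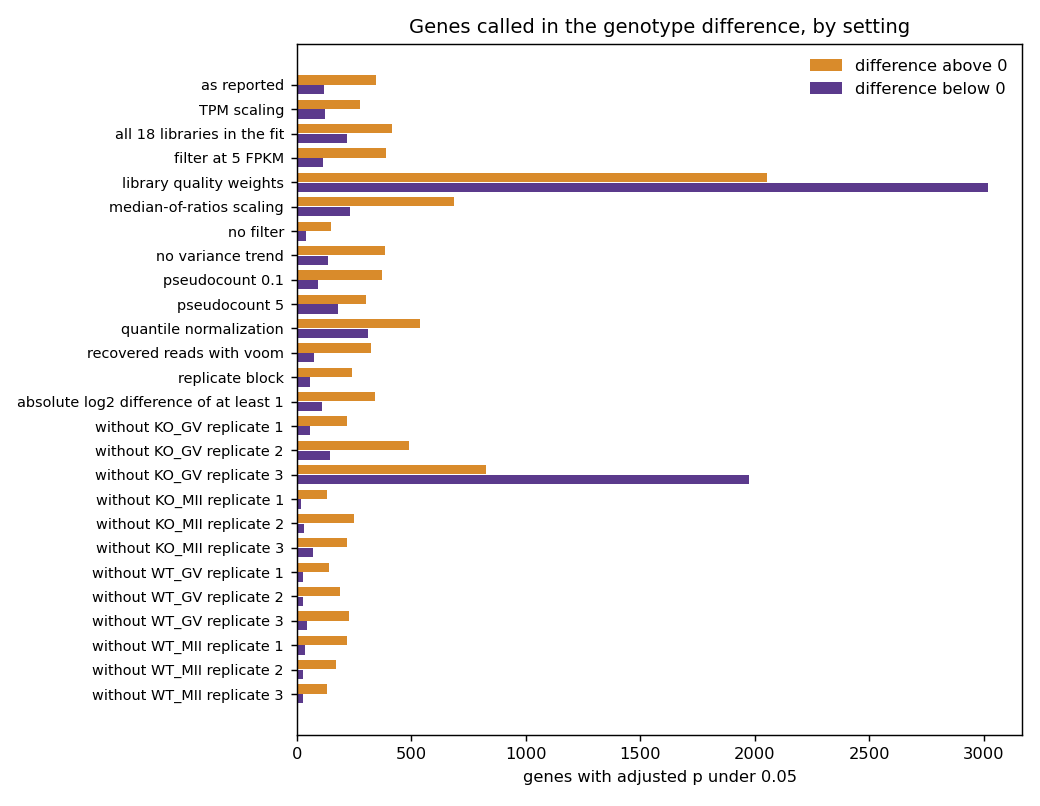
Genes with a called genotype difference above 0 (orange) and below 0 (purple) in the reported fit and in each alternative. The reported counts are 346 and 119; fits with library quality weights (2052 and 3018) and without KO GV replicate 3 (827 and 1976) stand apart.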

How the data were processed

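The deposited table holds FPKM computed by the authors, per the file headers, for 27874 gene identifiers in 18 libraries. Per the labels, libraries followed Smart-seq2 with oligo(dT) priming. Neither mm10 nor DESeq2 1.38.3, both listed in the submitters' processing notes, has a stated role there. The sources used here do not give the aligner, counter, annotation or strand. FPKM are shares of a library's reads, so total mRNA per oocyte is not measured. GENCODE vM21 held 27829 of the identifiers. Converted to reads by exon length, 92.8% to 93.2% of nonzero values per library were whole to within 0.05; 94.0% of genes were whole to within 0.1 in every one of 18 libraries. The labels name no molecular identifiers, so amplified reads can repeat a molecule.

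log2 of the deposited FPKM plus 1 was fitted with limma 3.58.1 (R 4.3.3) as 4 group means with a variance trend, after the filter given in the opening. Values of log2(FPKM + 1) understate the change of low genes. P-values are two-sided, adjusted by Benjamini-Hochberg over all 9791 genes, with a threshold of 0.05; they measure the spread between these samples, which may be technical. Gene lists (21 lists, 655 symbols, 551 tested) are described by counts and medians, without a test. Members and lists were chosen with earlier results of these data known. Named were Lsm14b, the 15 largest differences each way among genes called in the fit and in all 12 fits without 1 library, with a mean of at least 5 FPKM and leaving out predicted genes and pseudogenes (93 qualified above 0 and 2 below), plus, per list, at most 4 members chosen by smallest p; of these genes, 1 is not reported here, and genes named outside this rule are said to be chosen later or stand in a list. Sequences and 3′ ends come from 1 coding transcript per gene. Simulated data for this comparison held 200 changed genes of 9791. A log2 difference of 1 was recovered in 5% of genes and one of 2 in 60%, and 5.80% of calls were false. The simulation drew independent normal noise with the same SD in all libraries for a gene, and changed only genes with a mean log2 level above 2. The real libraries were unequal in spread, so these shares do not carry over to the calls here. Alternatives were other pseudocounts, filters, scalings, weights and fits, the replicate number as a block, a voom fit of recovered reads, and leaving out each library. Tables used Python 3.11.15, pandas 2.3.3, numpy 2.4.6 and matplotlib 3.10.9.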

Additional observations from a re-analysis of the deposited data

Results flagged for a closer look

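Each value here is a test of a difference between genotypes in the same contrast, MII against GV, so all of them stand out by that test alone. It was passed by 346 genes above 0 and 119 below 0. The named genes above 3 on the log2 scale were Zp2 at 4.57, Cd9 at 4.18, Paip2 at 3.85, Tmsb10 at 3.60, Pde6d at 3.59, Abcg1 at 3.54, Sh3gl1 at 3.49, Chchd2 at 3.47, Timm9 at 3.40, Cfl1 at 3.37, Ska3 at 3.31, Car9 at 3.30, Mfsd2a at 3.19, Zp3 at 3.13, Ppp2r2b at 3.09, Padi6 at 3.06 and Zp1 at 3.03. Between 2 and 3 were Mapk3 at 2.64, Psmb7 at 2.61, Cfl2 at 2.53, Nlrp2 at 2.36, Sdhd at 2.30, Arpc1a at 2.22, Rpl5 at 2.20, Zfp57 at 2.19, Tle6 at 2.16, Rbpms2 at 2.07 and Cpsf4l at 2.01. Under 2 were Dnmt3l at 1.99, Cox7b and Ndufc2 at 1.96, Anapc5 at 1.90, Nlrp5 at 1.89, Psmd8 at 1.81, Oog1 at 1.70, Atp5c1 at 1.69, Birc5 at 1.66, Ska1 at 1.65, Rplp0 at 1.59, Dnaja1 at 1.54 and Psmb2 at 1.48. Below 0 were Psmd13 at -1.08, Lsm14b at -1.64, Cnot3 at -1.81, Gnl2 at -1.86 and Kdm7a at -2.16.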

How the results depend on the processing

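The count of genes with a genotype difference, 465 (346 above and 119 below 0), was 922 (688 and 234) with median-of-ratios scaling, 849 (539 and 310) with quantile normalization, 190 (151 and 39) with no filter and 5070 (2052 and 3018) with library quality weights, whose estimate gave KO GV replicate 1 a weight of 71.7 and did not converge. These scalings moved the median of all genes from -0.16 to 0.06 and -0.06, and TPM scaling moved it to -0.27. Genes below 0 alone numbered 220 with all 18 libraries in the fit, 180 with a pseudocount of 5 and 77 with voom. Without 1 library the count ran from 151 to 2803, from 131 to 827 above and from 20 to 1976 below 0. Genes changed from GV to MII numbered 2325 in KO and 3669 in WT with a filter at 5 FPKM, which tests 5490 genes, 2291 in KO and 3679 in WT with a minimum of 1 on the log2 scale, and 6368 in KO with quality weights; without 1 library they ran from 2788 to 4069 in KO and from 4654 to 6345 in WT. The filter, the lack of one and the minimum change which genes can be called; for the other settings the cause was not tested. With the replicate block the count was 299 (243 and 56), 294 of them among the 465; same-numbered libraries correlated at -0.54 to 0.37, and 3 of 12 correlated best with their own number, so the numbers are not taken as pairs. Of the named results, 973 values of called results over the alternatives kept the call and 150 lost it, 584 of uncalled results stayed uncalled and 132 gained a call, and 0 reversed. The naming rule fixed part of the kept calls in advance, those of the largest differences in the fits without 1 library.

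A group of 3 libraries limits the precision: in the simulation a log2 difference of 2 was missed in part, so a miss of the threshold does not show equal change. KO GV replicates 2 and 3 lie farthest from their group, and GV enters every difference. Levels near that of 1 read rest on few counts.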
